A study of Mus musculus with 4 samples.

Results

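The T helper 17 axis genes described here are 9 genes: the cytokine receptor chains Il23r, Il1r1 and Il17re, the chemokine receptor Ccr6, the transcription factors Rora and Ahr, and the cytokines Il17a, Il17f and Il22. A gene was measured where a probe set carried its symbol and no other in the platform annotation, which held for 7 of the 9 and for 19938 genes in all. Both probe sets that carry Il22 also carry the symbol of its near-identical copy Iltifb, and no probe set with the single symbol Il1r1 was found, so neither gene has a value here. Each of the 7 measured genes had 1 probe set, so no choice among probe sets was needed. The genes were put together with an earlier result in view, a large difference in Il23r between the lymphoma arrays, and the question was whether the other genes follow it.

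T helper 17 cells are CD4+ T cells that secrete the IL-17 cytokines and act against extracellular bacteria and fungi at barrier surfaces. Their differentiation is set off by TGF-beta with IL-6 or IL-21 and driven through STAT3 and the ROR nuclear receptors, and IL-23, acting on the receptor encoded by Il23r, maintains and expands them. IL-23 receptor, Ccr6 and IL-17 are also carried by innate-like lymphocytes such as gamma-delta T cells and group 3 innate lymphoid cells, and Ccr6 is carried by B cells as well.

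Total RNA of CD4+ spleen cells from C57BL/6 mice was hybridised to 4 single-channel Affymetrix gene arrays. The lymphoma group holds 2 arrays of CD4+ lymphoma cells that arose in the spleen of mice with a gene trap on both Tet2 alleles, Tet2 being a dioxygenase that oxidises 5-methylcytosine. The wild type group holds 2 arrays of CD4+ splenocytes from wild type mice. Cells of both groups were bound by a biotinylated CD4 antibody and collected on magnetic columns, and neither the animals' ages, the number of animals per sample nor the purity is given in the sources used here. The trap and the tumour come together in the lymphoma group, so their effects cannot be told apart. Nothing states that the numbered samples came from separate animals, though sex-linked transcripts, given below, differed between the samples of each group. The p-values therefore measure the spread between these samples only.

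Over 35556 probe sets the arrays had a median intensity of 138 and 129.8 in lymphoma and 142 and 141 in wild type. Tet2 itself had an intensity of 596 and 399 in lymphoma and 979.9 and 1016 in wild type (log2 difference -1.03, SE 0.24, limma adjusted p = 0.077), and where its probes lie relative to the trap is not known here. Of the T cell markers, Cd3e had 7271 and 7720 in lymphoma and 5823 and 5806 in wild type, and Cd4 had 5839 and 7134 against 4552 and 5153. Cd5 went the other way, with 2443 and 1557 against 3929 and 3479 (log2 difference -0.92, limma adjusted p = 0.11). Of 6 measured T cell markers, 5 had a positive and 1 a negative log2 difference, and none was called. Across all genes tested in limma, 4.27% were called at an adjusted p under 0.05, with 1.82% higher and 2.46% lower in lymphoma. The arrays also differed in sex-linked transcripts in a way that crosses the groups. The Y-linked gene Eif2s3y had 843 and 13.9 on lymphoma arrays 1 and 2 against 12.8 and 368 on wild type arrays 1 and 2, and Xist, transcribed from an inactive X chromosome, had 1856 and 4688 against 5421 and 42.0. Lymphoma array 2 and wild type array 1 thus shared low Y-linked signal, while lymphoma array 1 carried both Xist and Y-linked signal.

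The promoters of the genes that were at least 1 log2 unit higher on lymphoma array 2 than on array 1, Il23r, Ccr6 and Rora, are shown with those of Il17a and Il17f, which were closer together, so that their letters can be set beside the values that follow. Each sequence runs 5' to 3' on the gene's own strand from 250 bases before to 50 bases after a transcription start in RefSeq (GRCm38.p6), and capitals mark AGGTCA, the core recognised by ROR and many other nuclear receptors, read on both strands (TGACCT on the other).
Il23r, chr6:67491806-67492105, minus strand: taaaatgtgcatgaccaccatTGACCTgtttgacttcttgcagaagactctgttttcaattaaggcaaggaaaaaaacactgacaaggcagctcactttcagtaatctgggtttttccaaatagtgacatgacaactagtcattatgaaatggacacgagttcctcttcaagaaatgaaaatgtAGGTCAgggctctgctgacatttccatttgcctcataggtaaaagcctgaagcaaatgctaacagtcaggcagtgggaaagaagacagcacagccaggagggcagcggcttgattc
Ccr6, first start, chr17:8235793-8236092, plus strand: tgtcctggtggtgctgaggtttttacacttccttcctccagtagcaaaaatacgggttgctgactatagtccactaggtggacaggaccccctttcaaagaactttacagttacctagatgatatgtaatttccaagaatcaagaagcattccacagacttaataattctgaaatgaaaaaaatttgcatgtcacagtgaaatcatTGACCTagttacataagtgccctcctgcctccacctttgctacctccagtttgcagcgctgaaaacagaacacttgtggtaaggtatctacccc
Rora, chr9:68653536-68653835, plus strand: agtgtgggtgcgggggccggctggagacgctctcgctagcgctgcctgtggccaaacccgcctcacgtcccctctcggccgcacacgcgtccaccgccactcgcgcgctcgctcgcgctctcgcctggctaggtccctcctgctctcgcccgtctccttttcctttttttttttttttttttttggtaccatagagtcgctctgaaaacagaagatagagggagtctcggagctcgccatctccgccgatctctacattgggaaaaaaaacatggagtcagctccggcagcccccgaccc
Il17a, chr1:20730655-20730954, plus strand: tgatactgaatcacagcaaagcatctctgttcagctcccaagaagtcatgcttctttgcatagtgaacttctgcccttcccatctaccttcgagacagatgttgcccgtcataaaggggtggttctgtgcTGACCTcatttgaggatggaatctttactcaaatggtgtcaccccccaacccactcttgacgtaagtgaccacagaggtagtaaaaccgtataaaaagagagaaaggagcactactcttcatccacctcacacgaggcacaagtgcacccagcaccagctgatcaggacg
Il17f, chr1:20784221-20784520, minus strand: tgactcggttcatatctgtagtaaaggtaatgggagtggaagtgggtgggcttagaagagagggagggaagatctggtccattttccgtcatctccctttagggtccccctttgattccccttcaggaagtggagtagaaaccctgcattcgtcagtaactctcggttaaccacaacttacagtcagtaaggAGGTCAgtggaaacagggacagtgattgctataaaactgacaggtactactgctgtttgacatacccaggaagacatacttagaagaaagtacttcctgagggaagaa

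RefSeq promoters were found for 8 of the 9 genes, 10 starts in all, since Ccr6 and Il1r1 have 2 each. The motif AGGTCA stood in 4 of the 10 and in 16.3% of 32851 promoters of the same length. Il23r held 2 copies, starting 229 and 66 bases before the start, and Il17a, Il17f and the first start of Ccr6 held 1 each, 120, 58 and 44 bases before it. The promoter of Rora had none. Genes with the motif were thus found among those higher on lymphoma array 2 and among the others. The core bound by Ahr with its partner Arnt, GCGTG on either strand, stood in 3 of the 10 promoters (1 copy in Rora) and in 32.4% of all. The STAT site TTCNNNGAA, which reads alike on both strands, stood in the first Ccr6 promoter only, in 2 copies, and in 8.3% of all. These are matches of letters in a 300-base window and no measurement of binding.

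Il23r had the largest difference between lymphoma and wild type among the 7 genes, and it came from lymphoma array 2, where the deposited intensity was 21.4-fold that of lymphoma array 1. Ccr6 and Rora were also higher on lymphoma array 2, Ahr was lower there, and Il17a, Il17f and Il17re lay near their wild type values on both lymphoma arrays. None of the 7 passed in limma, against 4.27% of all genes, and none had an unadjusted p under 0.05. The lowest unadjusted p in limma was 0.053, for Il23r. Wherever 2 values are given for a group, they are those of arrays 1 and 2 in that order.

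Il23r, the chain that gives the IL-23 receptor its specificity, had an intensity of 157 and 3365 on lymphoma arrays 1 and 2, against 115 and 66.3 in wild type. Both lymphoma values lay above both wild type values, but lymphoma array 1 exceeded the higher wild type array by less than the wild type arrays differed from each other. On the log2 scale the group means were 9.51 ± 3.13 in lymphoma and 6.45 ± 0.56 in wild type (SD, n = 2 each). The log2 difference was 3.06 (SE 1.28, 95% interval -0.05 to 6.17, limma adjusted p = 0.33). The wild type values lay below the median probe set of their arrays, and whether they stand above background is unknown, so the difference may be understated. Without lymphoma array 1 it was 5.27 and without lymphoma array 2 it was 0.85. In each case a single lymphoma array stands for the group and the spread comes from the wild type pair alone. The genes were also chosen with the gap between these arrays known, so no test is given for these values. The size of the Il23r difference thus rests on lymphoma array 2.

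Il17re encodes a receptor chain of the IL-17 family that binds IL-17C together with IL-17RA. Its intensity was 97.8 and 120.4 in lymphoma and 118 and 106 in wild type, with overlapping groups. The log2 difference was -0.04 (95% interval -0.50 to 0.41, limma adjusted p = 0.96), and it turned to 0.05 under quantile normalization and to 0.03 with array medians subtracted.

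Ccr6, the receptor for the chemokine CCL20 that guides T helper 17 cells and B cells, had 309.5 and 1453 in lymphoma, against 464 and 439.9 in wild type. Lymphoma array 1 lay below both wild type arrays and lymphoma array 2 above both. The log2 difference between the groups was 0.57 (SE 0.65, 95% interval -1.02 to 2.16, limma adjusted p = 0.81). Set against the wild type mean, lymphoma array 2 alone gave 1.68 and array 1 alone gave -0.55, so the direction depended on the array. A single array holds no lymphoma spread, so no test is given for these values.

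Rora encodes a ROR nuclear receptor that acts with a related ROR receptor in T helper 17 differentiation. Its intensity was 576 and 1303 in lymphoma, against 467 and 541 in wild type. Both lymphoma values were above both wild type values, lymphoma array 1 only slightly. The log2 difference was 0.79 (SE 0.38, 95% interval -0.13 to 1.70, limma adjusted p = 0.41). Lymphoma array 1 by itself lay 0.20 above the wild type mean and array 2 lay 1.37 above it, with no test for single arrays.

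Ahr, the aryl hydrocarbon receptor, a ligand-activated factor needed in mice for IL-22 production by T helper 17 cells, went the other way. Its intensity was 839.6 and 318 in lymphoma, against 716 and 641 in wild type. Lymphoma array 1 was above both wild type arrays and lymphoma array 2 below both. The log2 difference was -0.39 (SE 0.43, 95% interval -1.44 to 0.66, limma adjusted p = 0.80). Taken singly, lymphoma array 2 differed from the wild type mean by -1.09 and array 1 by 0.31, again with no test.

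The signature cytokines were close to wild type on both lymphoma arrays. Il17a had 88.8 and 122 in lymphoma and 82.1 and 109 in wild type, with overlapping groups (log2 difference 0.14, 95% interval -0.43 to 0.71, limma adjusted p = 0.88). Il17f, whose product pairs with that of Il17a, had 97.9 and 89.4 in lymphoma and 107 and 112 in wild type. Its lymphoma values were both slightly lower (log2 difference -0.22, 95% interval -0.63 to 0.18, limma adjusted p = 0.65). The intervals do not include a 2-fold change of either cytokine transcript. No detection calls were used here, so whether these signals stand above background is unknown, and a change in a transcript near background would be understated. The groups did not overlap for 3 of the 7 genes, against 44.1% of all genes. Il23r and Rora lay wholly above wild type, as 20.6% of all genes did, and Il17f wholly below, as 23.5% did.

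**Figure D1:**
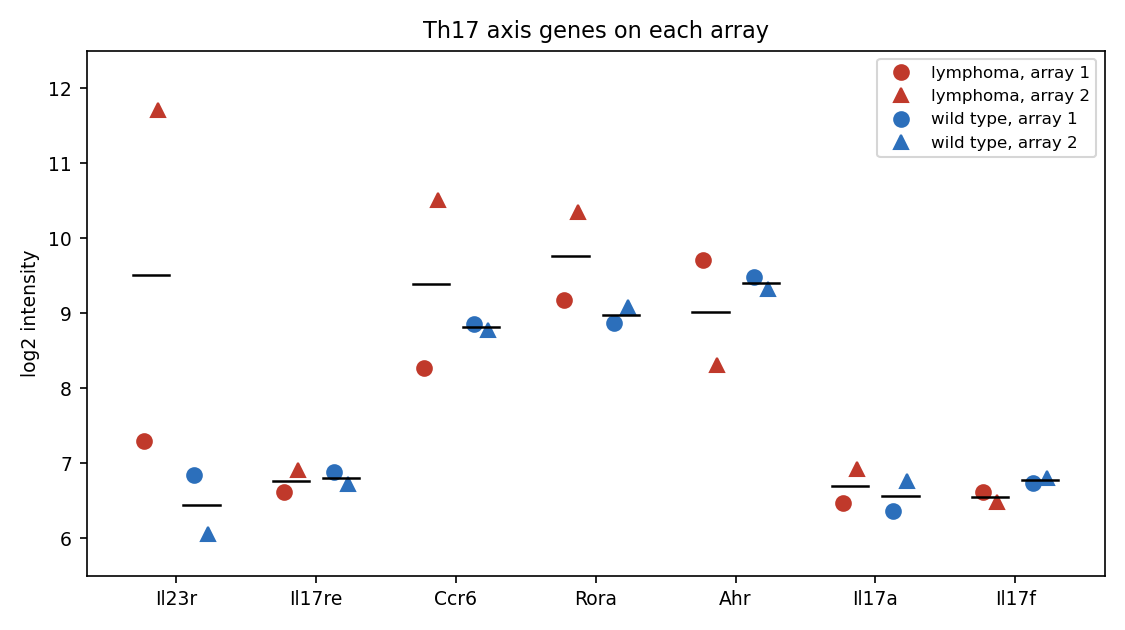
Log2 intensity (y axis) of the 7 measured T helper 17 axis genes (x axis) on each array, with lymphoma left of wild type, circles for array 1, triangles for array 2 and bars for the mean of 2 arrays. For Il23r, Ccr6 and Rora the triangle of lymphoma array 2 stands above the other 3 arrays, for Ahr it stands below them, and heights should be compared within a gene only.

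**Figure D2:**
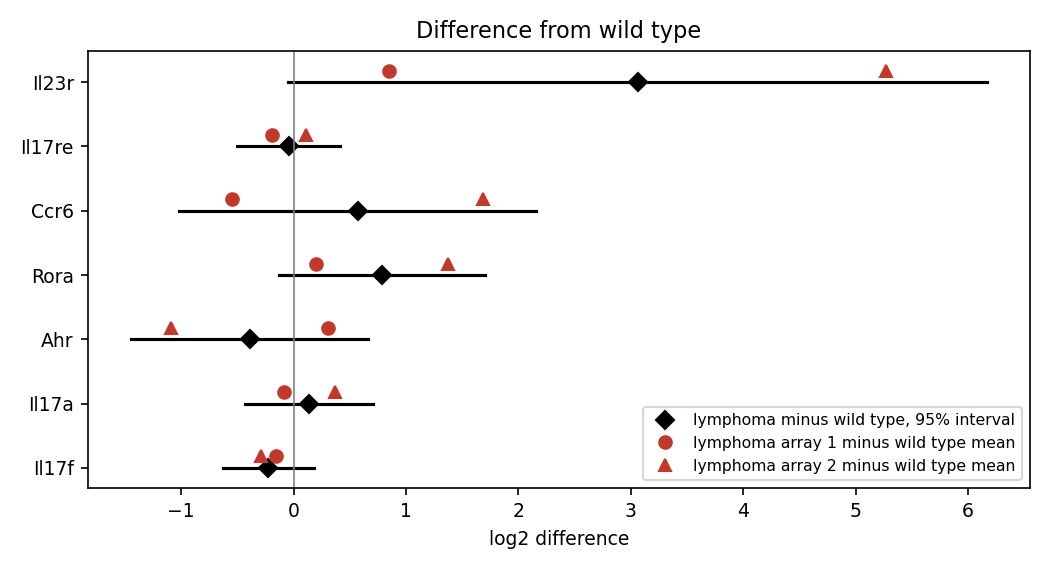
Log2 difference from wild type for each gene: diamonds give the lymphoma mean minus the wild type mean with its 95% interval from limma, and circles and triangles give lymphoma arrays 1 and 2 minus the wild type mean. The interval includes 0 for each of the 7 genes, and the lymphoma arrays lie on opposite sides of 0 for Il17re, Ccr6, Ahr and Il17a.

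Set beside Il23r, the other genes followed it in part. The log2 gap of lymphoma array 2 over array 1 was 4.42 for Il23r, 2.23 for Ccr6 and 1.18 for Rora, or 4.69-fold for Ccr6 and 2.26-fold for Rora. For Ahr the gap was -1.40, a 2.64-fold higher signal on array 1. Il17a (0.45), Il17re (0.30) and Il17f (-0.13) stayed under 1 log2 unit. Of the 6 genes other than Il23r, then, 2 were at least 1 log2 unit higher on lymphoma array 2, 1 was at least that much lower and 3 lay closer together. Among all genes 1.72% were higher and 2.2% lower by that much, 3.91% in either direction. These counts compare 1 array with 1 array and carry no test.

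Gaps of that size were rarer between the wild type arrays, at 1.08% of all genes. No measured T helper 17 axis gene reached 1 log2 unit there. The gap of wild type array 2 over array 1 was -0.79 for Il23r, 0.21 for Rora, 0.40 for Il17a and between -0.16 and 0.06 for the other 4 genes. For Il17a the wild type gap was thus nearly as large as the lymphoma gap of 0.45.

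Among 19938 genes ordered by how much higher they were on lymphoma array 2, Il23r stood in place 4, Ccr6 in place 42 and Rora in place 235. Ordered from the other end, Ahr stood in place 236. Ahead of Il23r were the T cell receptor segment Trav14-1 (6.19), Olr1 (4.97) and Grb10 (4.54). The median gap over all genes was -0.05.

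The lymphoma arrays also differed in the sex-linked transcripts given above, which cannot be told apart from any other difference between these samples. Paired by low Y-linked signal, lymphoma array 2 exceeded wild type array 1 by 4.88 for Il23r, 1.65 for Ccr6 and 1.48 for Rora on the log2 scale, and differed by -1.17 for Ahr. Paired by Y-linked signal, lymphoma array 1 minus wild type array 2 was 1.24 for Il23r, -0.51 for Ccr6, 0.09 for Rora and 0.39 for Ahr. The second pair did not match in Xist, and for Ccr6 and Ahr the 2 pairs differed in opposite directions. Each is 1 array against 1 array, with no test, and the part of sex in these values was not tested.

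**Figure D3:**
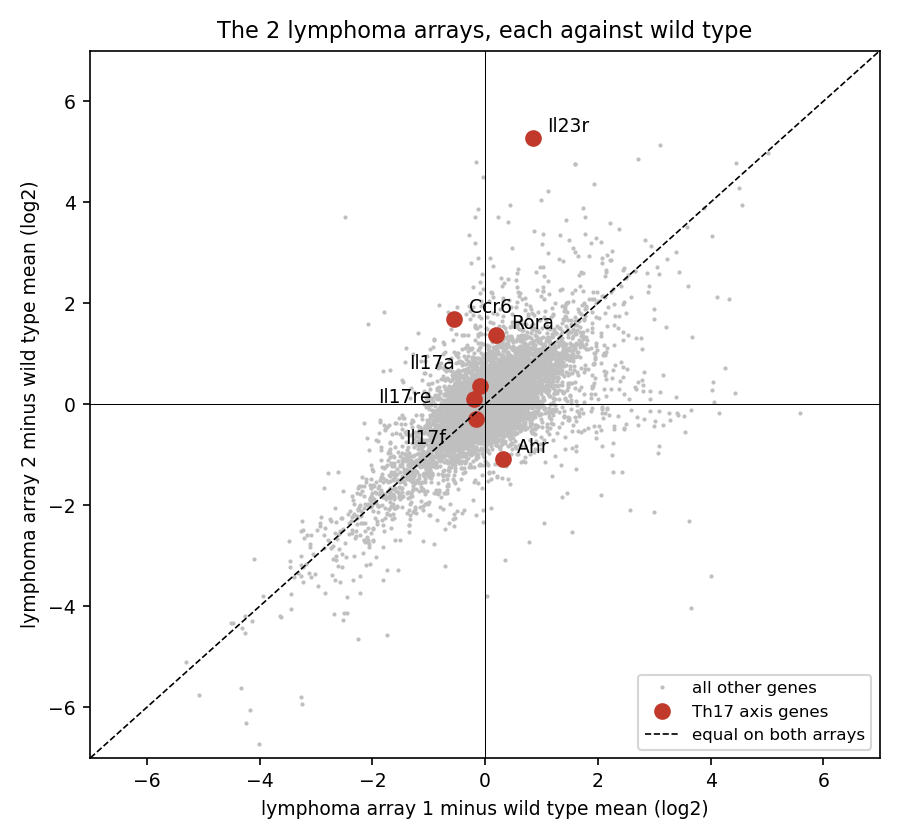
Each point is a gene, placed by its log2 difference from the wild type mean on lymphoma array 1 (x axis) and on lymphoma array 2 (y axis), with the 7 T helper 17 axis genes in red, all other genes in grey and the dashed line marking equal values. Il23r lies at 0.85 and 5.27, Ccr6 (-0.55, 1.68) and Rora (0.20, 1.37) lie above the line, Ahr (0.31, -1.09) lies below it, and the IL-17 cytokine and receptor genes lie near the origin.

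The 10 genes whose 4 values, each taken against the gene's own wild type mean, lay nearest to those of Il23r were Krt17, Acod1, Grb10, Olr1, Fgf16, Garem1, Hc, Cxcl2, Reep1 and Cxcl3, in that order. Predicted gene models (symbols of Gm with a number, or with Rik) were left out before the 10 were taken. Distances over the 4 arrays ran between 1.12 log2 units for Krt17 and 1.78 for Cxcl3, while Ccr6 was at 3.88 and Rora at 4.01. Krt17, a keratin of epithelial cells, had 293 and 2597 in lymphoma against 92.6 and 100.5 in wild type. Acod1, which makes itaconate in activated macrophages, had 279 and 2424 against 129.6 and 128. Cxcl2, a chemokine that attracts neutrophils, had 264 and 2361 against 63.5 and 119. All 10 were higher on lymphoma array 2, which the measure of likeness selects for, and none passed between the groups in limma (lowest adjusted p 0.073, for Reep1). With 4 arrays many genes can share such a pattern, and no more than likeness is meant.

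Other genes of the pathway were counted from lists fixed with earlier results known, and their median log2 difference is given beside that of all genes, -0.04. Regulators inside the cell were the group with most calls. Of 19 measured genes of signalling and transcription, 5 rose, none fell and 14 did not pass (median 0.50), where 1.82% of all genes were called higher and 2.46% lower. The same 2 shares are the background of each list count that follows. Bhlhe40, a helix-loop-helix repressor, rose by 1.99 (SE 0.31, limma adjusted p = 0.022) and Batf, an AP-1 partner of IRF4 needed for T helper 17 differentiation, rose by 1.97 (SE 0.20, limma adjusted p = 0.0068). Fosl2 rose by 1.25, the hypoxia factor Hif1a by 0.91 and Maf, a driver of IL-10 and IL-21, by 0.84. The calls on Bhlhe40 (limma adjusted p = 0.052), Fosl2 (0.064) and Hif1a (0.059) ended under quantile normalization, and those on Hif1a (0.054) and Maf (0.062) without the variance trend. The call on Fosl2 also ended with the replicate number as a block (0.060). Stat3, the factor activated by IL-6, IL-21 and IL-23, had 3172 and 3095 in lymphoma and 2291 and 2445 in wild type, which did not pass (log2 difference 0.40, limma adjusted p = 0.27). None of the 19 was 1 log2 unit apart between the lymphoma arrays, where Il23r differed by 4.42. None of the calls in this and the following paragraphs passed in limma once a wild type array was left out, whichever it was.

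Among 19 measured inducing cytokines and their receptors, 1 rose, 2 fell and 16 did not pass (median -0.50). Il1r2, the decoy receptor that binds IL-1 without signalling, had 3653 and 4879 in lymphoma against 503 and 517 in wild type. It rose by 3.05 (SE 0.20, limma adjusted p = 0.0023) and was high on both lymphoma arrays, with a gap of 0.42. Il1b, which encodes IL-1 beta, a product mainly of myeloid cells, fell by 2.05 (limma adjusted p = 0.0075). Il12rb2, the second chain of the IL-12 receptor, had 139 and 67.4 in lymphoma against 336 and 376 in wild type. It fell by 1.87 (SE 0.34, limma adjusted p = 0.038). In RefSeq it is the nearest protein-coding gene to Il23r on 1 side on chromosome 6, and of the neighbouring pair Il23r was higher and Il12rb2 lower on lymphoma array 2 than on array 1. Il12rb1, the chain shared by the IL-12 and IL-23 receptors, had 920.3 and 734 in lymphoma and 611 and 472 in wild type (log2 difference 0.61, limma adjusted p = 0.24).

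Several receptors of this group ran opposite to Il23r between the lymphoma arrays. Of the 19 genes, 6, Il12rb2 among them, were at least 1 log2 unit lower on lymphoma array 2 than on array 1 and 1 was higher, against 2.2% and 1.72% of all genes. The IL-7 receptor chain Il7r had 4299 and 959 in lymphoma, against 4043 and 3922 in wild type. The IL-6 receptor Il6ra had 2105 and 703 against 1896 and 2151, and the IL-18 receptor chain Il18r1 had 733 and 247 against 761 and 616. For these 3 genes, as for Il2ra with 1716 and 672 against 1826 and 1270.5, lymphoma array 1 lay near the wild type arrays and lymphoma array 2 below them. Il21, a cytokine of follicular helper and T helper 17 cells, had 2596 and 315 in lymphoma against 592 and 486, so that it was high where Il23r was not. Il6 was the gene higher on lymphoma array 2, with 12.4 and 183 in lymphoma against 10.8 and 18.2 in wild type. Except on lymphoma array 2, its values lay far below the median probe set of their arrays. Whether those low values stand above background is unknown. None of these 6 genes (Il7r, Il6ra, Il18r1, Il2ra, Il21 and Il6) passed between the groups in limma.

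The secreted effectors had 1 rise, no fall and 9 genes that did not pass among 10 (median 0.01). Lif, a cytokine of the IL-6 family, had 429.6 and 711 in lymphoma against 104 and 99.8 in wild type and rose by 2.44 (SE 0.27, limma adjusted p = 0.0080). Il10 had 989 and 202 against 166 and 310.1, like Il21 high on lymphoma array 1 only. Ccl20, the ligand of Ccr6, had 115 and 104 in lymphoma against 111 and 108, and Csf2 had 29.3 and 42.4 against 33.0 and 36.4. Neither of these 2 differed between the groups by more than the wild type arrays differed from each other.

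Of 10 measured IL-17 family cytokines, receptors and relays, 1 fell, none rose and 9 did not pass (median -0.19). Each of the 10 had a negative difference, as did 11197 of all 19938 genes. Those of Il17d (-0.03) and Traf6 (-0.07) were smaller than 0.077, the amount by which subtracting array medians raised the median of all genes. Il17ra, the signalling chain shared by the IL-17 receptors and the partner of the Il17re product, had 535 and 584 in lymphoma against 1422 and 1201 in wild type. It fell by 1.23 (SE 0.19, limma adjusted p = 0.021) with a gap of 0.12 between the lymphoma arrays. Il17ra is also expressed in myeloid cells, for which 6 of 9 listed markers were called lower in lymphoma, and their part in this fall and in that of Il1b was not tested.

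Among 6 measured receptors of IL-22 and IL-1, Il1r2 was the only call (median 0.09). Il1rn, the soluble antagonist of the IL-1 receptor, had 365 and 1478 in lymphoma against 161 and 131 in wild type, a log2 difference of 2.34 that did not pass in limma (adjusted p = 0.11), with a gap of 2.02 in the direction of Il23r. Of 9 measured partners and targets of Ahr, 1 rose and none fell (median -0.03). The rise was that of Arnt2, a relative of the Ahr partner Arnt, with 1080.2 and 1584 against 363 and 435 (log2 difference 1.72, SE 0.24, limma adjusted p = 0.017). The Ahr target genes Cyp1a1 (52.8 and 40.2 against 50.1 and 58.4) and Tiparp (525 and 449.6 against 476 and 432) did not pass, with limma adjusted p values of 0.74 and 0.89. Entpd1, the ectonucleotidase CD39, had 1133 and 559 in lymphoma against 1135 and 1163, lower on the array where Ahr was lower. The other 8 genes of this list lay within 1 log2 unit between the lymphoma arrays. Among them Nqo1 was higher on array 2, with 55.1 and 83.3 in lymphoma against 53.4 and 52.1. Of 10 genes of the ROR, REV-ERB and clock group, none passed (median 0.23), and Nr1d1, a repressor that competes with ROR at shared sites, had 259 and 744 in lymphoma against 438 and 352, with a gap of 1.52.

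**Figure D4:**
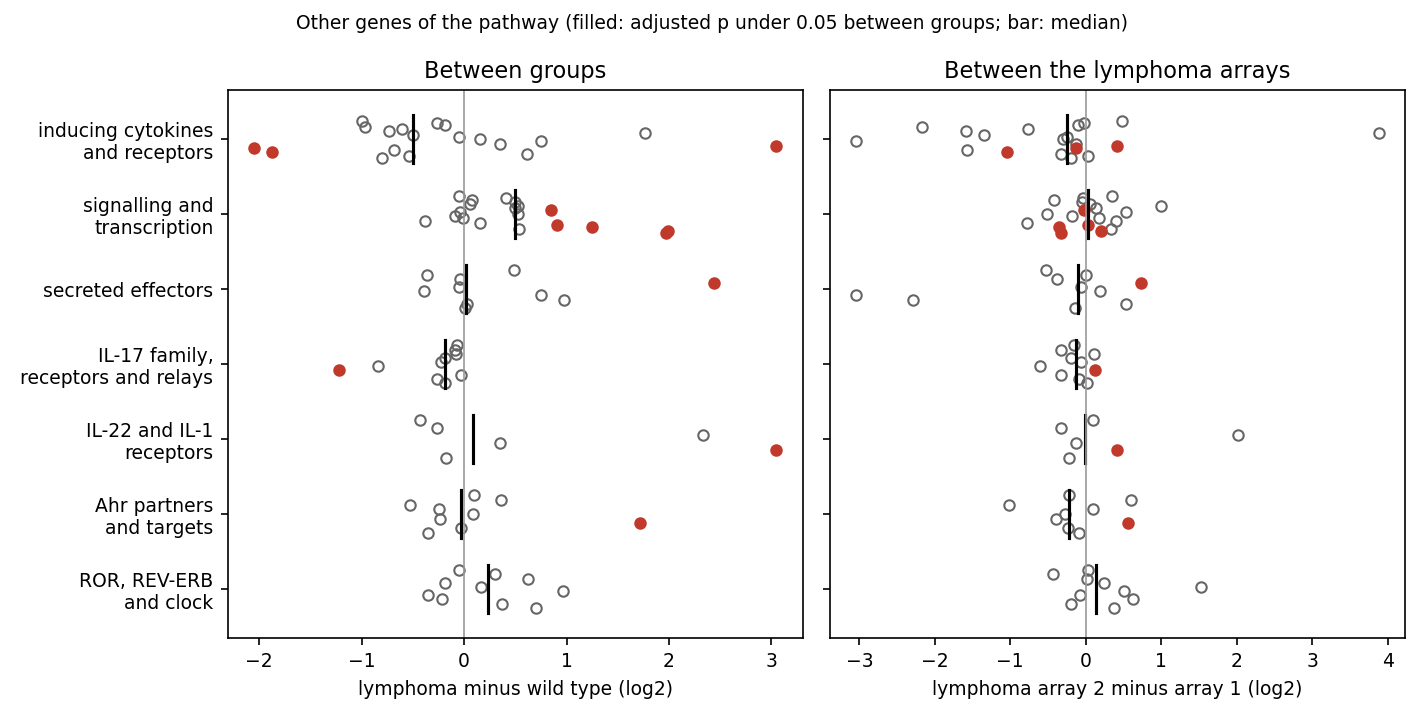
Each point is a gene of the pathway lists (rows), placed by its log2 difference between lymphoma and wild type (left) or between lymphoma arrays 2 and 1 (right), with filled points for genes at a limma adjusted p under 0.05 between the groups and bars for list medians. Filled points such as Il1r2, Batf and Lif stand apart on the left, and all filled points lie within 0.73 log2 units of 0 on the right except Il12rb2, which was lower in lymphoma and more than 1 log2 unit lower on lymphoma array 2 than on array 1.

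Markers of other spleen cells differed between the groups as well. The B cell list summed to 3272 and 2634 on lymphoma arrays 1 and 2 against 20392 and 13787 in wild type, with 7 of 9 measured genes called lower. The macrophage and monocyte list summed to 2232 and 3288 against 8628 and 9116 (6 of 9 lower), and the dendritic cell list to 4849.9 and 4206 against 17262 and 13473 (7 of 10 lower). No listed value was 0. The part of these cells in the differences given above was not tested. In such mixed samples fewer cells of a type and less RNA per cell cannot be told apart. Between the lymphoma arrays, Cd22 of the B cell list was higher on array 2, as Ccr6 was (652 and 1590.4 against 2561 and 1968 in wild type), and the other 8 genes of the list were lower there. The part of B cells in the Ccr6 values was not tested. Within the macrophage list Lyz2 (415 and 1436 on the lymphoma arrays, 1753 and 1951 in wild type) and Cd14 (62.7 and 140.3 against 101 and 96.7) were higher on lymphoma array 2 than on array 1, while Adgre1 was level (115 and 117 against 1057 and 1110.3). The other 7 genes than Lyz2 and Cd14 lay within 1 log2 unit, in both directions, such as Csf1r (gap 0.47) and Vcam1 (-0.62). The median gap of the list was 0.13. The part of myeloid cells in the difference between the lymphoma arrays was not tested.

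Markers of innate-like T cells and group 3 innate lymphoid cells, which carry Il23r, summed to 1442 and 1801 in lymphoma against 3372 and 2643 in wild type. Of 10 measured of 17 listed, 2 were called lower (Kit and Blk) and none higher, and the constant genes of the gamma-delta receptor on this list were not analysed here. Most of the fall in the sum came from Kit (108 and 131 against 627 and 512) and Blk (189 and 208 against 969 and 622). The part of B cells and other cells in the fall of these 2 genes was not tested. Zbtb16, the factor of innate-like lineages, had 208 and 143 against 275 and 298, and Sox13 had 229 and 188 against 235 and 213. Only Klrb1c among the 10 was at least 1 log2 unit higher on lymphoma array 2 (35.6 and 184 against 121 and 109). The NK cell list summed to 1904 and 2517 against 1642 and 1595, with none of 9 genes called. On lymphoma array 2, 3 of the 9 (Klrb1c, Klrd1 and Klrc1) were at least 1 log2 unit higher than on array 1. Another 1 of the 9 was at least that much lower. The shares of all genes were 1.72% higher and 2.2% lower. Most of the NK sum in lymphoma came from Eomes (816 and 901 against 538 and 431) and Prf1 (535 and 843 against 327 and 333). NK cells and activated T cells both express these genes, and the part of either cell type in the sum was not tested. The NK receptor genes Ncr1, Klra8 and Klrd1 were lower on both lymphoma arrays than on either wild type array, Klrd1 with 116 and 260.5 against 412 and 457. Of the 9 NK genes, 5 had a positive and 4 a negative log2 difference between the groups. The receptor genes Klrc1 and Klre1 were among the 5. Neutrophil and mast cell markers summed to 828 and 841 against 779.8 and 881, erythroid markers to 558 and 1140.3 against 634 and 823, and the CD8 genes to 385 and 424 against 1241 and 692. Stromal and endothelial markers summed to 4349 and 1645 against 2412 and 2193. The sum on lymphoma array 1 was carried by Dcn, a proteoglycan of fibroblasts, with 2762 and 50.8 in lymphoma against 60.0 and 55.0 in wild type, while the endothelial gene Pecam1 had 610.4 and 697 against 1352 and 1066. None of these 4 lists had a call. The T cell list summed to 26581 and 27811 in lymphoma against 22841 and 22520 in wild type, with Cd5 the 1 gene of 6 that was lower in lymphoma.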

How the data were processed

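The deposited table holds linear intensity values, 1 per probe set and array, which the authors made with Affymetrix Expression Console per the submitters' processing notes. Its version and its summarisation, background and normalization steps are not given in the sources that were used. For arrays, their number limits the precision.

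The log2 of the deposited values was taken without a pseudocount or filter. Of 35556 probe sets, 21789 carried 1 gene symbol in GEO's platform annotation, 1621 carried several and 12146 were not listed. For 999 genes with several probe sets the one with the highest mean was used. The groups were set against each other with limma 3.58.1 in R 4.3.3: the model held group alone, eBayes used a variance trend, tests were two-sided and p-values were adjusted by Benjamini-Hochberg across 19938 genes. Residual degrees of freedom were 2, prior ones 4.24, and the SE had a median of 0.20. The 95% intervals are those of limma for single genes. A call is an adjusted p under 0.05.

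The fit was tested on simulated data for this comparison (19938 genes). Of 50 genes changed by 1 log2 unit 4% were recovered, of 50 changed by 2 units 84%, with 9 false calls. The simulation gave a gene the same spread on all 4 arrays. In the data 3.91% of genes were at least 1 log2 unit apart between the lymphoma arrays and 1.08% between the wild type arrays. These rates therefore do not apply to genes that differ strongly between the lymphoma arrays, such as Il23r. Gaps between the lymphoma arrays are log2 differences with no test. The members and lists were chosen with earlier results of these data known. Named genes are all members, of each list at most 4 called genes by size (otherwise at most 3 as values), and the 10 genes nearest to Il23r by Euclidean distance, predicted gene models left out. Genes at least 1 log2 unit apart between the lymphoma arrays, and Maf, Stat3, Il12rb1, Ccl20, Csf2, Cyp1a1, Tiparp, Cd3e, Cd4, Cd5, Zbtb16, Sox13, Adgre1, Pecam1, Eomes, Prf1, Ncr1 and Klra8, were named after their values were seen. Promoter letters are from RefSeq (GRCm38.p6). Positions of probes are left out because the array's build is not named. Alternatives were quantile normalization, median subtraction, a pseudocount of 16, leaving out the genes of the lowest tercile of mean level, no variance trend or a robust one, averaged probe sets, the replicate block and leaving out each array. Figures were drawn with matplotlib 3.10.9.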

Additional observations from a re-analysis of the deposited data

How the results depend on the processing

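In the 9 alternatives that kept all 4 arrays, no T helper 17 axis gene was called, and the Il23r difference lay between 2.88 and 3.14 (limma adjusted p between 0.0508 and 0.686). Leaving out 1 array moved it between 0.85 and 5.27. A group then holds a single array, so no p-value is given for the T helper 17 axis genes in these fits. Other differences also changed sign with the array left out: Il17a ranged between -0.089 and 0.365, Il17re between -0.194 and 0.106, Ccr6 between -0.546 and 1.685, Ahr between -1.092 and 0.310, Il10 between -0.167 and 2.125, Il21 between -0.766 and 2.275, Il6 between -0.173 and 3.706 and Nr1d1 between -0.602 and 0.922. The range was -1.473 to 0.098 for Il18r1, -1.18 to 0.172 for Il2ra, -1.521 to 0.060 for Il6ra and -2.054 to 0.110 for Il7r. In each case a lymphoma array gave the extremes, except that Il17re also turned without wild type array 1 (0.037), as did Il17a (-0.063). Quantile normalization (0.051) and median subtraction (0.033) turned Il17re. Over all genes 852 were called in limma. When 1 array was left out this count lay between 0 and 1852, with 1732 and 1852 without lymphoma arrays 1 and 2, and 0 without either wild type array, where 2308 and 2049 had an unadjusted p under 0.05. The gap of Il23r between the lymphoma arrays lay between 4.29 and 4.51. The labels number the samples 1 and 2 in both groups without stating a pairing. With the replicate number as a block, Il23r had the same difference of 3.06 (limma adjusted p = 0.249), 984 genes were called and no T helper 17 axis gene. Deviations of same-numbered arrays correlated at 0.228 across genes. With the pairing crossed by Y-linked signal, chosen after seeing the data, 872 genes were called, Il23r had an adjusted p of 0.0508 in limma and Il1rn passed (0.0145). No detection calls were used, so what signal over background limits is unknown for Il17a, Il17f, Il17re and the low values of Il23r and Il6.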
